A study of Mus musculus with 10 samples.

Results

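The smooth muscle contractile genes of the myometrium, the muscular wall of the uterus, were taken by name from the gene table of the series. These were 33 of the 29268 genes in the table, and they encode the actins, myosins, actin-binding proteins, dense plaque and intermediate filament proteins of the smooth muscle cell, its transcriptional regulators Srf and Myocd, its L-type calcium channel and the oxytocin receptor. RNA had been sequenced from the uterus of 5 HSD17B1TG and 5 wild-type (WT) female mice aged 4 months, each mouse giving 1 library. The HSD17B1TG mice are FVB/N mice, heterozygous for a human HSD17B1 cDNA that a chicken beta-actin promoter with a CMV enhancer drives in all tissues, and the WT mice are wild-type controls; the strain of the WT mice is given only as WT. HSD17B1 is the enzyme that turns estrone into the more potent estradiol. TG1 to TG5 stand for the transgenic mice and WT1 to WT5 for the controls.

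The comparison asks whether overexpression of the enzyme changed the contractile programme of the uterus before adenomyosis-like lesions are found. HSD17B1TG females are described as not cycling, and the phase of each sequenced WT female is not given, so genotype and cycle stage cannot be told apart in any difference below. The transgene is human, and mouse Hsd17b1, which does not count it, was at 0.992 ± 0.291 FPKM in HSD17B1TG and 0.918 ± 0.375 in WT uterus (mean ± SD, n = 5 each).

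As background, smooth muscle contracts when calcium entering through voltage-gated channels activates myosin light chain kinase, which phosphorylates the regulatory light chain of myosin, and relaxes when myosin phosphatase removes the phosphate. Most genes of this machinery carry CArG boxes, short sequences bound by serum response factor (SRF), and are switched on together when myocardin, a coactivator of SRF, is present. In the uterus the same programme is run by the myometrium and by the walls of blood vessels, and estrogen and oxytocin receptor levels are known to set how readily the myometrium contracts.

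CArG boxes were looked for in the 250 bases before and 50 bases after the annotated start of each gene, in RefSeq promoter sequences of GRCm38.p6, for the 29 members that had an entry. At least 1 box, matched as 10 letters on either strand without a mismatch, stood in the window, or 1 of the windows, of 7 of the 29 members (24.1%), against 488 of 27025 genes of all kinds (1.81%). The 7 were Actc1, Cnn2, Ldb3, Myl6, Myl9, Srf and Vcl. Windows with at least 2 boxes were found for 5 of the 27025 genes (0.0185%), and Srf was the 1 member among them. Printed here are the window of Srf with its 2 boxes, those of a muscle and a non-muscle member with 1 box each (Myl9 and Cnn2), and that of Tpm4, the member whose levels did not overlap between the groups and whose window held no match. Capitals mark the CArG boxes, which start 82 and 62 bases before the start of Srf, 161 bases before that of Myl9 and 56 bases before that of Cnn2.
Srf, chr17:46556113-46556412, minus strand: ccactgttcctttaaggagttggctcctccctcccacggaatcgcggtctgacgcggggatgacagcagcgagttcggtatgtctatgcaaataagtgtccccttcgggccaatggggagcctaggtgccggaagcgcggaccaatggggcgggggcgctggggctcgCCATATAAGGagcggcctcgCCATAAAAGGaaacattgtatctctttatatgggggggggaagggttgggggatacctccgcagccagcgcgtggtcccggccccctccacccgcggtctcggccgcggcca
Myl9, chr2:156775214-156775513, plus strand: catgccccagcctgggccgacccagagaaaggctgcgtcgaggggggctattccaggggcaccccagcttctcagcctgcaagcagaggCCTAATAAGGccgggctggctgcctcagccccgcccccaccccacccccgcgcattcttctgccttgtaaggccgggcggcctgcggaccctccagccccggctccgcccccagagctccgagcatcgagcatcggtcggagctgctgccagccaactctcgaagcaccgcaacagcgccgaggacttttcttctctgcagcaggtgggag
Cnn2, chr10:79988350-79988649, plus strand: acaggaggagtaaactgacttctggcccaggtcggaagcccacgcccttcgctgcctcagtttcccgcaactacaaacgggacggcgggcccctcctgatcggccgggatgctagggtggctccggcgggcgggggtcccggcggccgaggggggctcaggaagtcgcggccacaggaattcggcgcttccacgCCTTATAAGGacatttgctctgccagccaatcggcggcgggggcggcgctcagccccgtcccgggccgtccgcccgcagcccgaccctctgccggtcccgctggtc
Tpm4, chr8:72135038-72135337, plus strand: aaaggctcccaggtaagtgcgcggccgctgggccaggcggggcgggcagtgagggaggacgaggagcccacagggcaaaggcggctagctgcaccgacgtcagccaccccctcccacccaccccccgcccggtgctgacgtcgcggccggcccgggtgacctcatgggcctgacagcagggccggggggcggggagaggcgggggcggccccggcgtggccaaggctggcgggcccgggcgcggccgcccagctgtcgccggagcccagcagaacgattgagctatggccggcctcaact
A match is a description of the letters and shows no binding, and boxes outside these windows or with a mismatch were not looked for. A member without a match, such as Acta2, may therefore still have a box.

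Counts per mouse summed to between 14817228 and 23271988, and the 33 contractile genes took 0.808% to 5.14% of them in HSD17B1TG and 0.686% to 3.72% in WT mice. TG1 with 5.14% and WT4 with 3.72% stood above the other 8 mice, in which the share was at most 2.41%. Both mice were kept, and results that turn on them are given also without them. No pair of libraries was near sampling noise, since in the most alike pair, WT2 and WT3, the chi-square per gene was 51.4. Mitochondrial transcripts took 1.94% to 7.57% of the counts in HSD17B1TG and 2.58% to 3.37% in WT mice, and without the mitochondrial genes the members' median log2 fold change given below was 0.52 in place of 0.54.

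Many of the contractile genes were among the abundant transcripts of the uterus and varied many-fold between mice of the same group, and none of the 33 differed between HSD17B1TG and WT past the adjusted threshold. All 33 had counts enough to pass the filter and entered the test. By edgeR's quasi-likelihood test and p-values adjusted by Benjamini-Hochberg over 16993 genes, 0 members had an adjusted p under 0.05 in either direction, where 568 genes (3.34%) were higher and 478 (2.81%) lower in HSD17B1TG uterus. With a fold over 2 and a mean FPKM over 1 also asked, 367 genes (2.16%) were called higher and 354 (2.08%) lower, again with 0 members among them. At an unadjusted p under 0.05, 1 member was higher (Pdlim7), where 14.7% of all genes were, and 1 was lower (Tpm4), where 11.4% were. DESeq2 put the same 1 member in each direction past an adjusted p of 0.05, and limma, on voom weights or on log2 FPKM, put 0. Single mice moved the count at an unadjusted p under 0.05 in edgeR's test. It was 12 members higher and 1 lower without WT4, and 6 and 2 of the 32 tested without TG1 and WT4. The share of all genes in these fits was not counted. The p-values weigh the difference between the groups against the spread between these mice.

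Although no member passed, 29 of the 33 log2 fold changes were above 0, where 50.2% of all genes were (49.8% were below 0), and their median was 0.54, where that of all genes tested was 0.00. The 4 below 0 were Actc1, Myh10, Cnn2 and Tpm4, of which Myh10, Cnn2 and Tpm4 are isoforms known for their use in non-muscle cells. The members vary together from mouse to mouse and are not independent, so the count of signs is a description. The median moved with single mice, being 0.09 without TG1, 0.35 without WT2, 0.33 without WT3, 1.16 without WT4 and 0.69 without TG1 and WT4, where 32 members were tested. In whole tissue, a different number of muscle cells, a different amount of RNA per muscle cell and RNA from other cells that express these genes cannot be told apart.

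**Figure D1:**
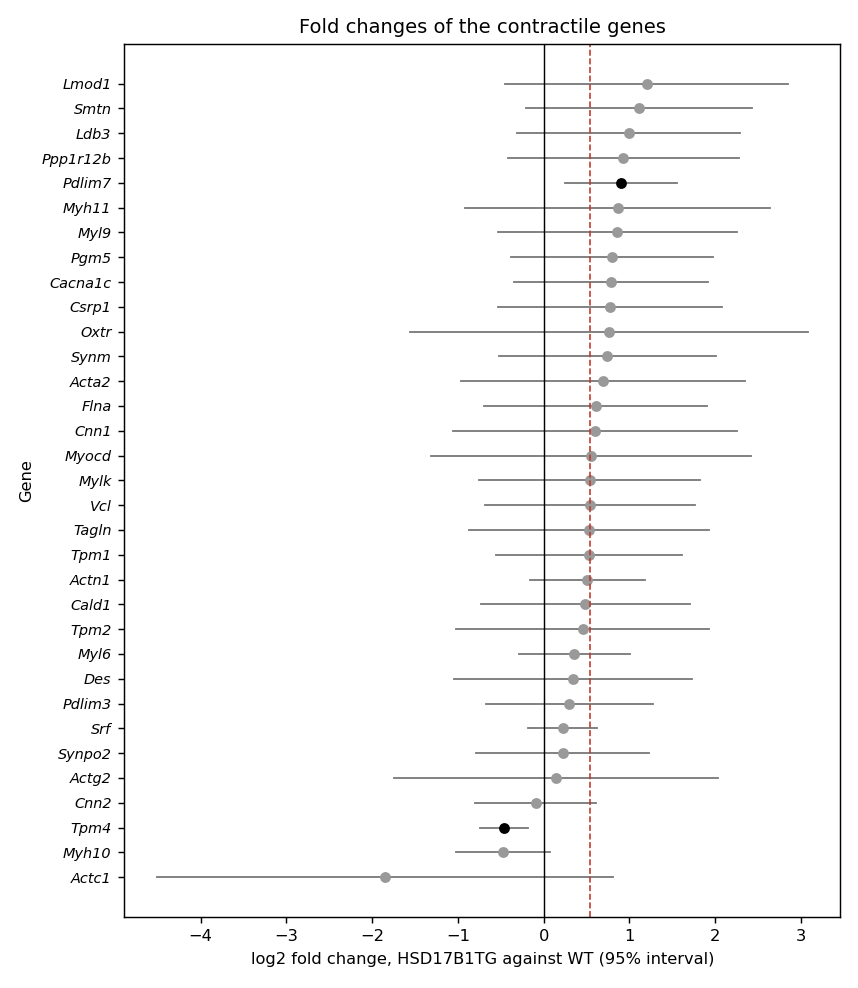
Log2 fold change of each of the 33 contractile genes, HSD17B1TG against WT (horizontal axis), with its 95% interval from edgeR's quasi-likelihood fit on 5 mice a group; the dashed line is the members' median of 0.54. Black points (Pdlim7 and Tpm4) had an unadjusted p under 0.05, all intervals but those of Pdlim7 and Tpm4 span 0, and no gene had an adjusted p under 0.05.

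Levels differed widely from mouse to mouse, and in most members the same mice were high or low. TG1 was the highest of all 10 mice in 27 of the 33 genes and WT4 in 4 (Actg2, Actc1, Actn1 and Myocd), while WT3 was the lowest in 22. Within the groups, TG1 was the highest HSD17B1TG mouse in 31 genes and TG5 the lowest in 27, and WT4 was the highest WT mouse in 30 and WT3 the lowest in 26. Taken as the median over the 33 genes of log2 CPM (counts scaled to the depth of the library) minus the WT mean, TG1 stood at 2.01, TG2 at 0.74, TG3 at 0.23, TG4 at 0.90 and TG5 at -0.22, and WT1 stood at 0.10, WT2 at -0.74, WT3 at -1.28, WT4 at 1.39 and WT5 at 0.43. In 0 members did every HSD17B1TG mouse lie above every WT mouse, which held for 4.04% of all genes. The 2 groups thus overlapped over most of their range, with 1 HSD17B1TG mouse above WT4 and 2 WT mice below TG5.

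**Figure D2:**
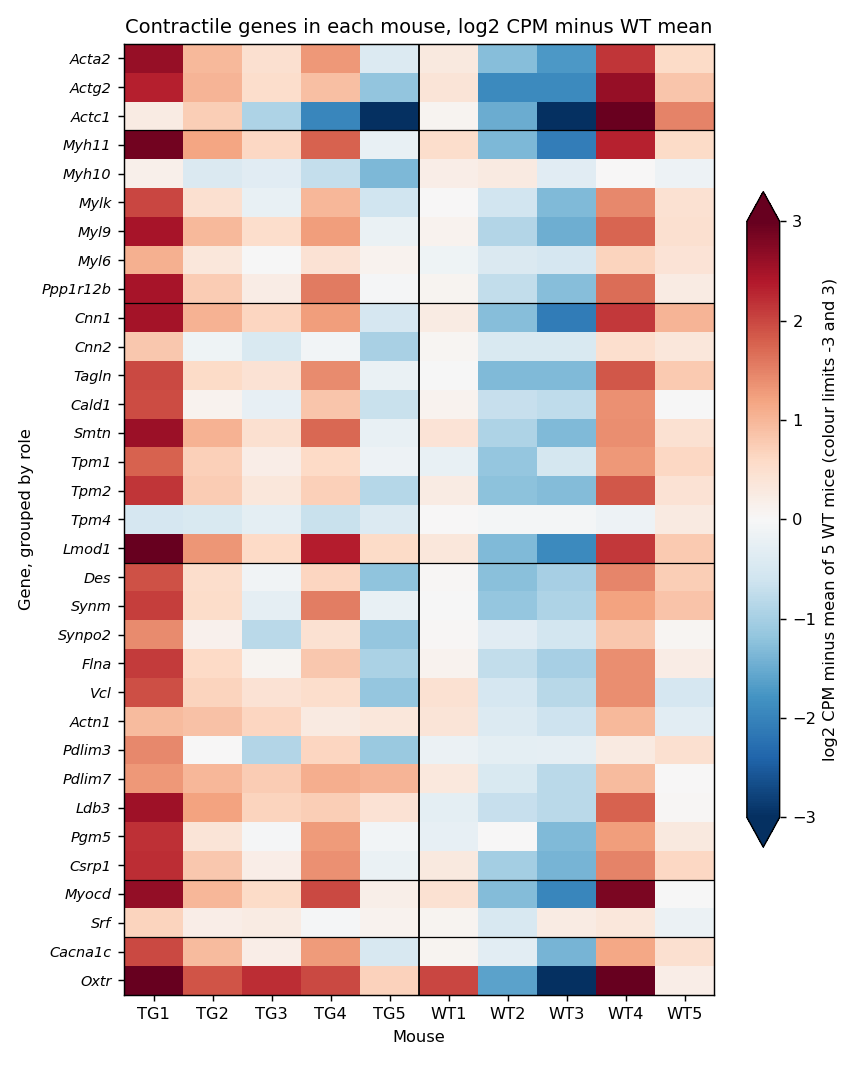
Log2 CPM of the 33 contractile genes (rows, grouped by role) in each of the 10 mice (columns), as the difference from the mean of the 5 WT mice, with colours limited at -3 and 3. The columns of TG1 and WT4 are red and that of WT3 blue in most rows, while the rows of Tpm4, Myh10, Cnn2, Myl6 and Srf are pale.

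The spread between mice of a group was larger for these genes than for most. The median SD of log2 CPM was 1.02 over the members in HSD17B1TG mice, against 0.44 over all genes tested, and 1.05 against 0.37 in WT mice. Of all genes, 12.1% in HSD17B1TG and 10.96% in WT mice varied as much as the median member or more. In WT mice the SD ran from 0.16 for Tpm4, 0.25 for Myh10, 0.33 for Srf and 0.35 for Pdlim3 to 1.74 for Myh11, 1.85 for Myocd, 1.94 for Actg2, 2.38 for Actc1 and 2.93 for Oxtr.

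The summed markers of other cell types moved with the contractile genes in part. Ordered by their share of contractile counts, the HSD17B1TG mice (TG1, TG4, TG2, TG3, TG5) had summed epithelial marker levels of 647, 1817, 2147, 2338 and 2994 FPKM, so that epithelial markers were higher the lower the contractile share. In WT mice no such order was seen, since WT4, highest in contractile genes, was also highest in epithelial markers at 1602 FPKM, and WT3, lowest in contractile genes, was at 626. All 10 epithelial markers were listed, all 10 had a fold change above 0 and 0 passed the adjusted threshold. Of the 10 stromal markers, 6 passed it as lower in HSD17B1TG. The sum over all 10 was 363 to 1335 FPKM in HSD17B1TG mice, highest in TG1, and 854 to 1193 in WT mice. Lum and Dcn were the largest part of it in TG1, at 598 and 366 FPKM, so this sum does not show how the 6 lower markers moved. The part of tissue make-up in the fold changes below was not tested.

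Sums of the remaining marker lists overlapped between the groups except for heart muscle. The 10 endothelial markers summed to 42.6 to 154 FPKM in HSD17B1TG and 80.3 to 183 in WT mice, and the 10 pericyte markers to 51.6 to 197 and 111 to 183, with 2 of 10 fold changes above 0 in each list (median log2 -0.65 and -0.60) and 0 past the threshold. In the HSD17B1TG mice, in the same order as above (TG1, TG4, TG2, TG3, TG5), the endothelial sums were 154, 126, 82.7, 45.6 and 42.6 FPKM and the pericyte sums 197, 137, 102, 65.2 and 51.6, so that both fell with the contractile share. In WT mice the endothelial sum was highest in WT3, the mouse lowest in contractile genes. The pericyte sum was also higher in WT3 (179 FPKM) than in WT4 (135 FPKM), the WT mouse highest in contractile genes. The 10 leucocyte markers summed to 78.0 to 123 and 60.1 to 117, with 2 of the 10 fold changes above 0 (Laptm5 and Arhgdib, both past the threshold as higher) and a median of -0.36 on the log2 scale. The 10 mesothelial markers summed to 36.2 to 137 and 31.5 to 83.1, with 9 of the 10 fold changes above 0 (median log2 1.47) and 0 past it. Of 10 skeletal muscle markers 6 were listed, summing to 19.5 to 46.9 and 14.5 to 89.4, with 0 past it. The 10 heart muscle markers summed to 5.17 to 8.14 in HSD17B1TG and 3.16 to 4.76 in WT mice with 0 past it, and the defining Myh6 and Mybpc3 were at no more than 0.0369 and 0.0298 FPKM in any mouse. No listed marker was at 0 in all mice.

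Of the actins that build the thin filament, Acta2 (smooth muscle alpha-actin, ENSMUSG00000035783, chr19:34241090-34255336, minus strand, GRCm38) ranked 22 among all genes of the table by mean FPKM (fragments per kilobase of transcript, scaled to the depth of the library, a level per length that can be set beside that of other genes). Its FPKM was 3526, 1132, 816, 1429 and 432 in TG1 to TG5 and 708, 236, 173, 2586 and 852 in WT1 to WT5. WT4 exceeded 4 of the 5 HSD17B1TG mice, and the other WT mice lay within or below their range. The means were 1467 ± 1209 against 911 ± 981 FPKM (SD, n = 5 each), and the log2 fold change of 0.69 had a 95% interval of -0.97 to 2.34 and an adjusted p of 0.602 in edgeR's test. Single mice moved it, to 0.069 without TG1 and 1.57 without WT4. Actg2, the gamma-actin of visceral smooth muscle (chr6:83512905-83536265, minus strand), stood at 1088, 439, 315, 403 and 95.6 in TG1 to TG5 and 285, 56.8, 56.6, 1339.7 and 384 in WT1 to WT5. WT4 held the highest value of all mice, and the log2 fold change was 0.14 (-1.75 to 2.04, adjusted p = 0.935, edgeR), with a sign that turned when TG1, WT1, WT2 or WT3 was left out (-0.43, -0.0019, -0.17 and -0.17). Over the alternatives with all mice the log2 fold change of Actg2 ran from 0.099 to 0.735.

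Actc1, the cardiac alpha-actin, was the rare actin of the 3, with FPKM values of 0.597, 0.853, 0.230, 0.0767 and 0 in TG1 to TG5 and 0.528, 0.130, 0, 4.31 and 1.48 in WT1 to WT5. Both groups held a mouse with 0 counts, TG5 and WT3, and a count of 0 allows up to 3 counts, or 0.202 CPM in WT3, the library with the fewest counts; this covers counting error only. Its log2 fold change of -1.85 had the widest interval of the members (-4.51 to 0.81, adjusted p = 0.361, edgeR), and WT4 and WT5 alone lay above the range of the HSD17B1TG mice. It was -2.47 without TG2 and -0.61 without WT4, and -0.51 in limma on log2(FPKM + 1). The longest stretch of identical bases between the longest transcripts of any 2 of these actins was 38, shorter than the 150-base reads.

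Of the thick filament, Myh11, the smooth muscle myosin heavy chain (ENSMUSG00000018830, chr16:14194535-14291372, minus strand), had FPKM values of 948, 288, 198, 434 and 108 in TG1 to TG5 and 183, 49.6, 29.8, 636 and 189 in WT1 to WT5. The order of the mice was that of Acta2, except that TG3 and WT5 changed places. The highest and lowest mice differed 8.74-fold in HSD17B1TG and 21.4-fold in WT, and the log2 fold change between the groups was 0.86 (-0.92 to 2.64, adjusted p = 0.536, edgeR), with 0.25 without TG1 and 1.80 without WT4. Myl9, the regulatory light chain that the kinase phosphorylates, ranked 36 among all genes and stood at 2340.2, 817, 616, 996 and 362 in TG1 to TG5 and 455, 224, 151, 1412 and 583 in WT1 to WT5, with a log2 fold change of 0.86 (adjusted p = 0.425; 0.31 without TG1, 1.53 without WT4). Myl6, the essential light chain that smooth muscle and non-muscle myosins share, was steadier, from 351 to 731 FPKM in HSD17B1TG and from 246 to 557 in WT mice, with a log2 fold change of 0.36 (adjusted p = 0.471; 0.15 without TG1, 0.55 without WT4).

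Myh10, the heavy chain of non-muscle myosin IIB, did not share the order of mice seen in Myh11. Its FPKM was 25.6, 16.7, 18.3, 13.8 and 8.94 in TG1 to TG5 and 26.3, 27.3, 17.7, 23.3 and 20.5 in WT1 to WT5. The values of 3 HSD17B1TG mice (TG2, TG4 and TG5) lay below all WT mice, and in WT mice the highest and lowest differed only 1.54-fold. The means were 16.7 ± 6.11 against 23.0 ± 3.99 FPKM, and the log2 fold change of -0.47 (-1.02 to 0.07) did not pass the test (adjusted p = 0.255, edgeR; -0.68 without TG1, -0.31 without TG5).

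Mylk, the light chain kinase (chr16:34745210-35002420, plus strand), had FPKM values of 276, 93.5, 59.0, 135 and 45.0 in TG1 to TG5 and 69.3, 45.2, 26.6, 184 and 92.5 in WT1 to WT5, with a log2 fold change of 0.54 (adjusted p = 0.599, edgeR; -0.0054 without TG1, 1.05 without WT4). Ppp1r12b, a targeting subunit of the opposing myosin phosphatase (chr1:134754658-134955942, minus strand), stood at 51.8, 15.8, 11.1, 27.5 and 9.15 in TG1 to TG5 and 9.93, 5.58, 3.81, 30.2 and 11.1 in WT1 to WT5, with a log2 fold change of 0.93 (adjusted p = 0.366; 0.396 without TG1, 1.596 without WT4). Each gene alone overlapped widely between the groups, but their ratio within a mouse did not. The log2 ratio of Mylk to Ppp1r12b FPKM was 2.41, 2.57, 2.41, 2.29 and 2.30 in TG1 to TG5 and 2.80, 3.02, 2.80, 2.61 and 3.06 in WT1 to WT5. All 5 HSD17B1TG mice lay below all 5 WT mice, and this is the ratio with the smallest spread of the 7 that are reported. The group means were 2.39 ± 0.11 against 2.86 ± 0.18, a difference of -0.46, with p = 0.00794 in the two-sided exact permutation test, the smallest it allows, and 0.0635 after Benjamini-Hochberg adjustment over the 8 ratios. With any 1 mouse left out the difference was -0.53 to -0.42. Over these loci, 6.85% of the exon bases of Mylk and 4.74% of those of Ppp1r12b also belong to genes on the other strand. The ratio concerns Ppp1r12b alone. Ppp1r12a, a related phosphatase subunit, was more abundant, at 42.6 ± 21.1 against 31.2 ± 6.74 FPKM (log2 fold change 0.44, adjusted p = 0.396, edgeR). The ratio of Mylk to Ppp1r12a was not tested, and how many gene pairs separate the groups in this way was not counted.

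The other ratios reported here, 6 in number, set a paralog against its partner or the receptor against the muscle marker, and none passed the adjusted threshold. The ratios of a non-muscle to a muscle paralog differed by -1.79 for Myh10 to Myh11 (exact permutation p = 0.0714, adjusted p = 0.206), -1.15 for Cnn2 to Cnn1 (exact permutation p = 0.103, adjusted p = 0.206) and -1.09 for Tpm4 to Tpm2 (exact permutation p = 0.206, adjusted p = 0.317). In each of the 3 the WT mice spanned all but the 1 or 2 lowest HSD17B1TG mice, since WT4 lay near the bottom. Without WT4 the differences for Myh10 to Myh11 and Cnn2 to Cnn1 were -2.36 and -1.55. Between the smooth muscle isoforms the differences were smaller, -0.27 for Actg2 to Acta2 (exact permutation p = 0.302, adjusted p = 0.345) and 0.01 for Tpm1 to Tpm2 (exact permutation p = 0.984, adjusted p = 0.984).

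**Figure D3:**
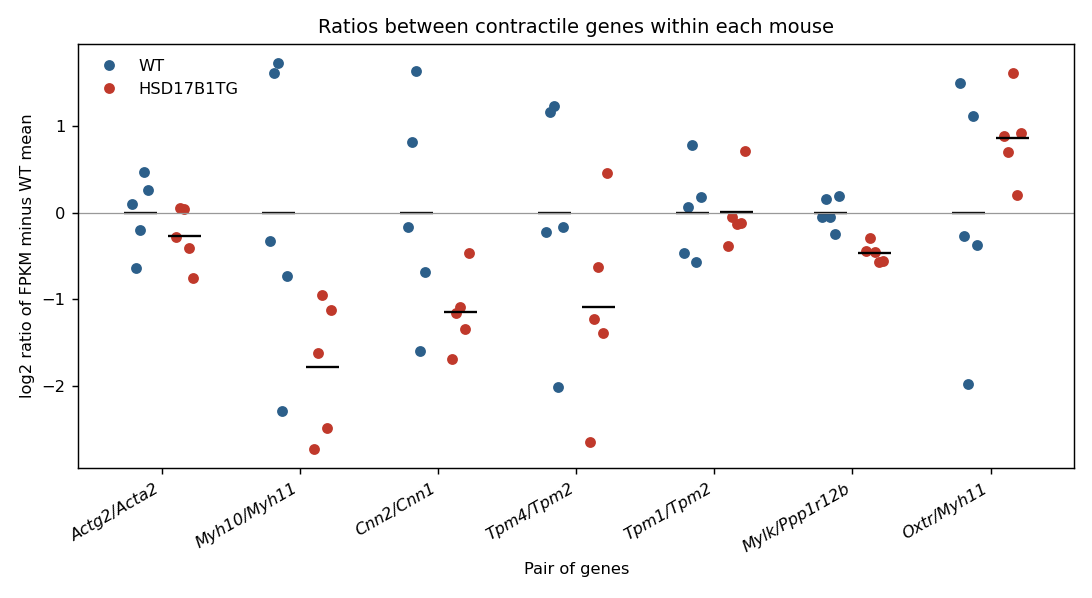
Log2 ratio of the FPKM of 2 contractile genes in the same mouse, minus the mean of the WT mice, for 7 pairs; each point is a mouse and each bar a group mean. For Mylk/Ppp1r12b alone all HSD17B1TG points lie below all WT points, with a mean difference of -0.46.

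Of the proteins along the thin filament, Tpm4 was the 1 member of the 33 whose groups did not overlap. Tpm4 is the tropomyosin known from non-muscle cells, encoded at chr8:72134975-72153142 on the plus strand (ENSMUSG00000031799). Its FPKM was 115, 117, 135, 102 and 122 in TG1 to TG5 and 165, 154, 153, 147 and 193 in WT1 to WT5. Every HSD17B1TG mouse was lower than every WT mouse, as were those of 450 of all genes tested (2.65%), and the highest and lowest mouse differed only 1.33-fold in HSD17B1TG and 1.32-fold in WT. The means were 118 ± 12.0 against 162 ± 18.5 FPKM (SD, n = 5 each), and the log2 fold change was -0.46 (SE 0.13, 95% interval -0.75 to -0.18). The exact permutation p was 0.00794, the smallest that 5 against 5 allows, but the adjusted p was 0.0551 in edgeR's test and thus missed the threshold, and over the alternatives it ran from 0.00870 to 0.118. It was under 0.05 in DESeq2, with upper quartile normalization, without mitochondrial genes, without TG3 and without WT4. Of its exon bases, 6.08% are shared with a gene on the other strand. Its promoter window, printed above, held no CArG box.

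The muscle tropomyosins varied far more between mice than Tpm4. Tpm1 had FPKM values of 436, 209, 150.1, 194 and 115 in TG1 to TG5 and 109.8, 56.8, 87.5, 317 and 195 in WT1 to WT5. Tpm2, which exceeded Tpm1 in 8 of the 10 mice, had FPKM values of 864, 326, 249, 318 and 106 in TG1 to TG5 and 229, 81.8, 77.2, 709 and 259 in WT1 to WT5. TG1 was highest and WT4 second in both, and the log2 fold changes were 0.53 (adjusted p = 0.535) and 0.46 (adjusted p = 0.708, edgeR). Without TG1 they were 0.13 for Tpm1 and -0.11 for Tpm2, and without WT4 they were 0.97 and 1.20.

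Cnn1, the calponin of differentiated smooth muscle that slows actomyosin, had FPKM values of 562, 202, 157, 236 and 69.8 in TG1 to TG5 and 117, 40.3, 22.9, 430.3 and 199 in WT1 to WT5. Its log2 fold change was 0.60 (-1.06 to 2.26, adjusted p = 0.657, edgeR), and WT mice alone spanned 18.8-fold. Without TG1 it was 0.041, and without WT4 it was 1.37. Cnn2, the calponin that many non-muscle cells use and whose window held a CArG box, stood at 128, 66.4, 54.0, 68.3 and 37.1 in TG1 to TG5 and 76.6, 52.1, 52.6, 104 and 90.7 in WT1 to WT5. All WT mice lay within the range of the HSD17B1TG mice, and the log2 fold change of -0.09 (adjusted p = 0.882) turned to 0.071 without TG5 and 0.051 without WT4.

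Tagln, transgelin or SM22, is a marker of the differentiated smooth muscle cell (chr9:45929619-45936058, minus strand). Here it had FPKM values of only 25.0, 9.31, 8.69, 16.7 and 5.46 in TG1 to TG5 and 6.28, 2.46, 2.43, 23.2 and 10.9 in WT1 to WT5, far below Acta2 and Myl9 in every mouse. Of its exon bases, 67.9% are shared with Gm48529 and Pcsk7 on the other strand; the counts were 78 to 952 for Tagln and 49 to 550 for Gm48529 (both neighbours chosen after values were seen), and how reads over shared bases were assigned is not given in the sources used here. The level of Tagln is therefore uncertain. TG1 and WT4 were again the highest and WT3 and WT2 the lowest mice, and its log2 fold change was 0.53 (adjusted p = 0.643, edgeR), with 0.15 without TG1, 1.23 without WT4 and up to 0.84 (limma on log2(FPKM + 0.1)) with all mice.

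Lmod1, a leiomodin that seeds actin filaments, had a log2 fold change of 1.20 (SE 0.75, 95% interval -0.44 to 2.85), at 53.8 ± 40.3 against 23.4 ± 24.4 FPKM. It was the highest of the members in edgeR's fit of all mice, but Oxtr was higher in voom and in limma on log2 FPKM, and Pdlim7, Ldb3 or Smtn was higher without TG1, TG4 or WT1. Without TG1 the value for Lmod1 was 0.72, and without WT4 it was 2.02. Smtn, smoothelin, had a log2 fold change of 1.11 (SE 0.60) at 162 ± 120.5 against 75.0 ± 53.5 FPKM. In both genes 2 HSD17B1TG mice, TG1 and TG4, lay above all WT mice and the other 3 within their range, and neither passed the test (adjusted p = 0.337 and 0.266, edgeR). Of the exon bases of Smtn, 16.3% are shared with genes on the other strand. Cald1, caldesmon, had a log2 fold change of 0.49 (adjusted p = 0.621), which became -0.12 without TG1 and 1.01 without WT4. That of Smtn was 0.61 without TG1 and 1.58 without WT4.

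The 11 genes of the intermediate filaments, dense plaques and actin crosslinks all had log2 fold changes above 0, between 0.22 and 0.99 with a median of 0.61, and 0 passed the adjusted threshold. Pdlim7, a PDZ and LIM domain protein of the actin cytoskeleton (ENSMUSG00000021493, chr13:55495795-55513676, minus strand), had the lowest adjusted p of them. Its FPKM was 95.6, 76.6, 66.7, 82.7 and 78.0 in TG1 to TG5 and 48.5, 27.8, 21.9, 76.0 and 38.8 in WT1 to WT5. The HSD17B1TG mice other than TG3, 4 in number, lay above every WT mouse, and the HSD17B1TG mice kept within 1.43-fold of each other where the WT mice spanned 3.48-fold. TG5, the lowest HSD17B1TG mouse in 27 members, was the third highest here. The means were 79.9 ± 10.5 against 42.6 ± 21.3 FPKM (SD, n = 5 each), the log2 fold change was 0.91 (SE 0.30, 95% interval 0.26 to 1.56) and the exact permutation p was 0.0159. The adjusted p was 0.0847 in edgeR's test, 0.0409 in DESeq2, and 0.0116 to 0.196 over all alternatives. Without WT4 the log2 fold change was 1.22 and Pdlim7 passed the threshold, together with Ldb3 (1.78) among the higher and Tpm4 (-0.50) among the lower members.

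Desmin (Des), the intermediate filament protein of muscle, had FPKM values of 731, 274, 179.9, 298 and 82.5 in TG1 to TG5 and 199.7, 79.2, 94.8, 538 and 321 in WT1 to WT5. All WT mice but WT2 lay within the range of the HSD17B1TG mice, and the log2 fold change was 0.34 (adjusted p = 0.772, edgeR) and -0.24 without TG1 and 0.85 without WT4. Its partner synemin (Synm) had a log2 fold change of 0.74 (adjusted p = 0.445; 0.31 without TG1, 1.11 without WT4) at 16.5 ± 11.9 against 9.86 ± 6.68 FPKM. Synpo2, an actin-binding protein of the muscle Z-line, and Pdlim3, a relative of Pdlim7, had log2 fold changes of 0.22 (adjusted p = 0.7996) and 0.30 (adjusted p = 0.7095), and both had 2 HSD17B1TG mice, TG3 and TG5, below all WT mice. Without TG1 both turned below 0 (-0.27 and -0.19), and so they did without TG1 and WT4 (-0.01 and -0.12). Over the alternatives with all mice, the values for Synpo2 and Pdlim3 were as low as 0.013 and 0.026.

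The remaining genes of the group anchor and crosslink actin. Flna, filamin A, stood at 369 ± 294 against 242 ± 174 FPKM, with a log2 fold change of 0.61 (0.015 without TG1, 1.12 without WT4). Vcl, vinculin, stood at 16.5 ± 11.9 against 11.4 ± 8.29 FPKM, with a log2 fold change of 0.54 (0.025 without TG1, 1.05 without WT4), and Actn1, alpha-actinin 1, at 86.1 ± 18.0 against 60.4 ± 30.5 FPKM, with one of 0.51. Actn1 was the steadier of these, with HSD17B1TG mice between 66.7 and 106 FPKM. Of the exon bases of Vcl, 25.5% are shared with Ap3m1 on the other strand. The LIM domain protein Csrp1 ranked 89 among all genes, at 509 ± 353 against 298 ± 228 FPKM and a log2 fold change of 0.78. Pgm5, a phosphoglucomutase relative found at adherens junctions, had a log2 fold change of 0.80 at 68.9 ± 51.9 against 39.7 ± 25.5 FPKM, and Ldb3, which binds alpha-actinin, one of 0.99 at 3.16 ± 2.35 against 1.59 ± 1.52 FPKM. The adjusted p-values of these 6 genes in edgeR's test ran from 0.316 for Ldb3 to 0.580 for Vcl. Without TG1 the log2 fold changes of Csrp1, Pgm5 and Ldb3 were 0.30, 0.26 and 0.43, and without WT4 they were 1.28, 1.23 and 1.78. That of Actn1 was 0.34 without WT3 and 0.83 without WT4.

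Of the 2 regulators, Myocd, the muscle-restricted coactivator (chr11:65176561-65269989, minus strand), had FPKM values of 7.57, 2.36, 1.80, 4.71 and 1.35 in TG1 to TG5 and 1.65, 0.467, 0.290, 8.57 and 1.17 in WT1 to WT5. WT4 was the highest and WT3 the lowest of all mice, 29.6-fold apart, and the log2 fold change was 0.56 (-1.31 to 2.42, adjusted p = 0.724, edgeR). It was 0.081 without TG1 and 1.99 without WT4, and up to 1.22 (voom) over the alternatives with all mice. Srf, whose protein binds the CArG box and whose own promoter held 2 of them, varied little, with FPKM values of 43.0, 30.9, 32.4, 26.3 and 28.8 in TG1 to TG5 and 28.8, 19.2, 31.7, 34.5 and 23.6 in WT1 to WT5. The mice of a group were within 1.63-fold and 1.80-fold of each other in HSD17B1TG and WT, and the log2 fold change of 0.22 (-0.18 to 0.63, adjusted p = 0.477, edgeR; 0.095 without WT2, 0.32 without WT4) thus had one of the narrower intervals.

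Of the genes that start a contraction, Cacna1c, the pore subunit of the L-type calcium channel, had FPKM values of 16.0, 7.75, 4.70, 9.75 and 2.88 in TG1 to TG5 and 4.31, 3.21, 1.52, 9.20 and 5.63 in WT1 to WT5. TG1 and TG4 lay above all WT mice, and the log2 fold change was 0.78 (-0.35 to 1.91, adjusted p = 0.362, edgeR; 0.40 without TG1, 1.16 without WT4). Oxtr, the oxytocin receptor (ENSMUSG00000049112, chr6:112473683-112489943, minus strand), had the widest range of the members with counts in every mouse. Its FPKM was 117, 31.3, 40.6, 33.5 and 13.7 in TG1 to TG5 and 34.6, 2.76, 0.505, 92.4 and 9.80 in WT1 to WT5. The 5 WT mice spanned 183-fold, with WT3 and WT2 near the bottom and WT4 close to TG1, while the HSD17B1TG mice spanned 8.55-fold and none was below 13.7. The means were 47.3 ± 40.4 against 28.0 ± 38.4 FPKM, and the log2 fold change of 0.76 (-1.56 to 3.08) did not pass the test (adjusted p = 0.692, edgeR; exact permutation p = 0.167). This fold change depended on the method and on single mice, running from 0.71 to 2.06 over the alternatives with all mice (1.97 in voom, 2.06 in limma on log2(FPKM + 0.1)), and from 0.095 without TG1 to 1.99 without WT4. The difference in spread between the groups was not tested. Set against Myh11 in the same mouse, Oxtr had a log2 ratio of -3.03 ± 0.51 against -3.90 ± 1.38 (exact permutation p = 0.238, adjusted p = 0.317), so that its WT range was wide also relative to a muscle gene.

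**Figure D4:**
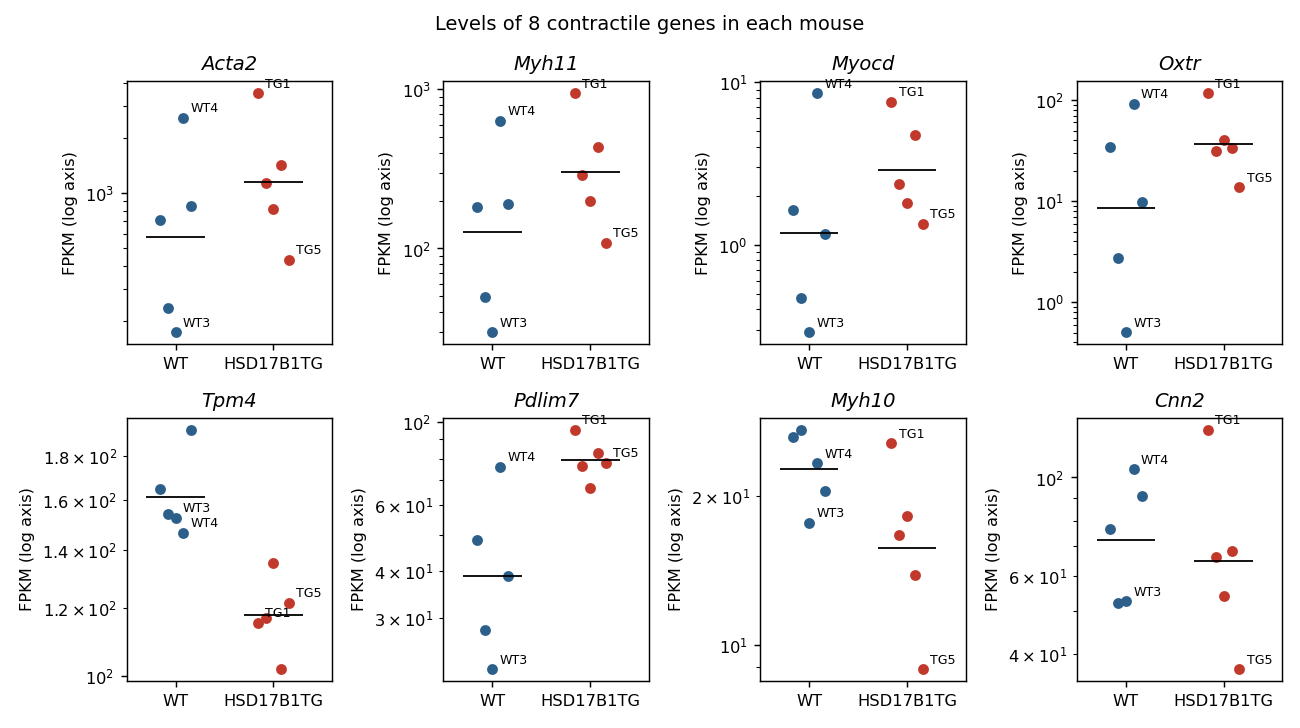
FPKM (log axes) of 8 contractile genes in each mouse, with the geometric mean of each group as a bar and TG1, TG5, WT3 and WT4 named. In Acta2, Myh11, Myocd and Oxtr the WT mice span a wider range than the HSD17B1TG mice, Tpm4 is the 1 gene with no overlap, and Myh10 and Cnn2 cover narrower ranges.

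Beyond the members, 86 other genes of smooth muscle contraction were listed, of which 82 passed the filter on low counts (Kcnmb2, Chrm2, Avpr1a and P2rx1 did not). Their median log2 fold change was 0.29, with 57 above 0 and 25 below, and 2 passed the adjusted threshold as higher (3.34% of all genes did) and 1 as lower (2.81%). The 22 tested calcium, channel and receptor genes had 12 above 0 and a median of 0.04, the 16 kinase, phosphatase and cGMP genes 11 and 0.32, and the 44 adhesion, cytoskeleton and coactivator genes 34 and 0.37. In 2 of the 3 genes past the threshold, Sorbs2 and Ano1, WT4 was the lowest of the WT mice, where it was the highest in 30 of the members.

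Orai1, the pore of the store-operated calcium channel, stood at 12.7 ± 2.65 FPKM in HSD17B1TG and 6.30 ± 1.36 in WT mice (SD, n = 5 each). Every HSD17B1TG mouse lay above every WT mouse, with a log2 fold change of 1.00 (SE 0.20, adjusted p = 0.0260, edgeR). Sorbs2, an adaptor of the actin cytoskeleton, likewise did not overlap, at 3.74 ± 0.685 against 2.13 ± 0.224 FPKM, with a log2 fold change of 0.81 (SE 0.15, adjusted p = 0.0227) that stays under the fold of 2 asked of a call. Ano1, a calcium-activated chloride channel, was lower at 2.45 ± 0.655 against 13.8 ± 8.50 FPKM, with a log2 fold change of -2.50 (SE 0.51, adjusted p = 0.0260). In Ano1, 4 HSD17B1TG mice were below all WT mice, and WT4, at 2.56 FPKM, was below TG2. Orai1, Sorbs2 and Ano1 each missed the adjusted threshold without TG2, TG4, TG5, WT2, WT3 or WT5, with adjusted p-values of at most 0.0697 in edgeR's test, and Ano1 missed it in voom (0.0802). With 1 mouse left out their log2 fold changes were 0.87 to 1.09 for Orai1, 0.72 to 0.88 for Sorbs2 and -2.77 to -2.30 for Ano1.

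Other genes by which the myometrium is known to be primed or quieted did not pass the test. Gja1, the gap junction protein connexin 43, had a log2 fold change of -0.47 (adjusted p = 0.511; -0.78 without TG1, -0.18 without WT1), Kcnma1, the large-conductance potassium channel, 0.19 (adjusted p = 0.899; -0.68 without TG1, 0.72 without WT4), Ptgfr, the prostaglandin F receptor, -1.26 (adjusted p = 0.310; -1.87 without TG1, -0.999 without TG5), and Mkl1, a coactivator of SRF that is not restricted to muscle, -0.05 (adjusted p = 0.881, all edgeR).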

How the data were processed

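RNA was isolated from the uterus of 10 mice, 1 library each, and sequenced as paired 150-base reads, which the authors aligned with HISAT2 2.0.5 to the Ensembl 94 mouse genome (GRCm38). The authors deposited, for each gene and mouse, raw read counts, a normalized count (a signal scaled by DESeq2 size factors, not used in any test here) and FPKM. Their own log2 fold changes and p-values, also in the table, were not used. How reads were counted, and whether by strand, is not given in the sources used here.

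Groups were taken from the labels. Counts of the 16993 genes that passed edgeR's filter were scaled by TMM factors, and groups were compared by edgeR 4.0.16 (R 4.3.3, quasi-likelihood test) with Benjamini-Hochberg adjustment, on 5 against 5 mice with no covariate; a call asked for an adjusted p under 0.05, a change of over 2-fold and, in at least 1 group, a mean FPKM above 1. Single genes in log2(FPKM + 1) and log2 ratios were tested with two-sided exact permutation tests over the 252 assignments, of which the smallest p is 0.00794. Fold changes are HSD17B1TG over WT. The pipeline was tested on simulated counts with known changes. Total counts were 14817228 to 23271988 per mouse, and Actc1 was at 0 counts in 2 mice. DESeq2 1.42.0, limma 3.58.1 (voom, and log2 FPKM with 1 or 0.1 added), other normalizations, no filter, removal of mitochondrial genes and leaving out each mouse were tried as alternatives.

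The 33 members, the other contraction genes, the markers and the 8 ratios were chosen with earlier results of these data known; 1 of these ratios is not reported here, and p-values remain adjusted over all 8. Values in every mouse are given for Acta2, Actg2, Actc1, Myh11, Myh10, Mylk, Myl9, Cnn1, Cnn2, Tagln, Des, Tpm1, Tpm2, Tpm4, Myocd, Srf, Cacna1c and Oxtr by rule, and for Pdlim7 and Ppp1r12b by a choice made after their values were seen. Of the other contraction genes, those past the adjusted threshold and Gja1, Ptgfr, Kcnma1 and Mkl1 are named, and Ppp1r12a is named by a choice made after its values were seen. The fit without both TG1 and WT4 was also added after the data were seen. Gene coordinates are those of the deposited table, promoters come from RefSeq, and exon overlaps from GENCODE M21, which gave 32 of the 33 members the same coordinates (Acta2 differed).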

Additional observations from a re-analysis of the deposited data

Results flagged for a closer look

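In each group of 5 mice, the gap between the highest or lowest FPKM and its nearest neighbour was set against the group's range (Dixon's 95% critical value). Of the 66 groups examined (33 genes in each genotype), 10 held such a mouse. These genes share their mice, so the 10 are not independent. The critical value holds for normally distributed values, which FPKM with a many-fold spread need not be. No rate by chance can therefore be set beside the 10, and log2 FPKM was not examined in this way.

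In 8 of the 10 the mouse was WT4, high among the WT mice. Its levels were 2586 FPKM for Acta2, 1339.7 for Actg2, 636 for Myh11, 30.2 for Ppp1r12b, 108 for Cald1, 709 for Tpm2, 4.28 for Ldb3 and 8.57 for Myocd. These genes include an actin pair, a myosin heavy chain and the coactivator of their transcription. In the other 2 the mouse was TG1, high among the HSD17B1TG mice, at 7.29 FPKM for Ldb3 and 117 for Oxtr. No mouse stood apart on the low side on the FPKM scale.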

How the results depend on the processing

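No paired analysis was possible because the labels give no replicate numbers that the groups share. Under the 8 settings that used all mice, 0 of 264 member fold changes turned direction and 4 newly passed the adjusted threshold. DESeq2 called 923 genes higher and 674 lower, put 1614 and 1241 past the adjusted p alone, and put 1 member past it in each direction (Pdlim7 and Tpm4). Voom called 189 genes lower, with 278 past the adjusted p, and limma on log2(FPKM + 1) called 228 lower. Tpm4 was the 1 member past the threshold with upper quartile normalization (1 lower) and without mitochondrial genes (1 lower).

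With 1 mouse left out, genes called ranged from 38 to 888 higher and 27 to 666 lower, and those past the adjusted p from 45 to 1335 and 30 to 1052. Members called ranged from 0 to 2 higher, members past the adjusted p from 0 to 2 higher and 0 to 1 lower, and their median from 0.09 to 1.16. Without TG1 and WT4, 1141 genes were called higher and 879 lower, and 1841 and 1405 passed the adjusted p. Of the 32 members tested in that fit, 2 were called higher (Pdlim7 and Ldb3), the same 2 passed the adjusted p and 1 (Tpm4) passed it as lower.

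Direction turned without TG1 for Actg2 (-0.43), Mylk (-0.0054), Cald1 (-0.12), Tpm2 (-0.11), Des (-0.24), Synpo2 (-0.27) and Pdlim3 (-0.19). It turned for Actg2 without WT1 (-0.0019), WT2 (-0.17) or WT3 (-0.17), for Cnn2 without TG5 (0.071) or WT4 (0.051), and for Synpo2 (-0.01) and Pdlim3 (-0.12) without TG1 and WT4. At the other end of the range over the mice left out, all without WT4, were 1.25 for Actg2, 1.05 for Mylk, 1.01 for Cald1, 1.20 for Tpm2, 0.85 for Des and 0.48 for Synpo2, with 0.51 for Pdlim3 without TG5 and -0.42 for Cnn2 without TG1. Kcnma1 turned to -0.011 in voom, -0.0012 in limma on log2(FPKM + 0.1), -0.68 without TG1, -0.045 without WT1, -0.052 without WT2 and -0.15 without TG1 and WT4, and was at most 0.72 (without WT4). Mkl1 turned to 0.010 without TG1 and 0.067 without WT5, and was at least -0.13 (without WT2). Over the mice left out, the log2 ratio differences ranged from -2.36 to -1.35 for Myh10/Myh11, -1.55 to -0.74 for Cnn2/Cnn1, -1.59 to -0.70 for Tpm4/Tpm2, -0.53 to -0.42 for Mylk/Ppp1r12b, -0.43 to -0.15 for Actg2/Acta2, 0.37 to 1.24 for Oxtr/Myh11 and -0.17 to 0.20 for Tpm1/Tpm2, the last being -0.17 without TG5, -0.11 without WT1 and -0.14 without WT4. The exact permutation p of the first 2 was under 0.05 only without WT4 (0.00794 and 0.0159, unadjusted). The cause was not tested.

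Actc1 was at 0 counts in 2 mice, where depth limits its level.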
